A study of Mus musculus with 18 samples.

Results

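Ribosomal protein genes were followed across 18 Affymetrix Mouse Gene ST 1.0 arrays of bone marrow-derived macrophages. They were taken as the rows whose only platform gene symbol began with Rpl or Rps and a digit, or was Rplp0, Rplp1, Rplp2 or Rpsa, without the S6 kinase genes and pseudogene names. The brightest row of each symbol was kept, which gave 63 genes of 19454. Of these, 33 encode proteins of the large ribosomal subunit and 21 encode proteins of the small subunit. The other 9 are paralogs or related genes that the naming rule also caught, such as Rps19bp1, whose product binds Rps19 and is not a ribosomal protein. In all, 60 of the 63 were bright enough to be tested. The exceptions were the paralogs Rpl10l, Rpl3l and Rpl39l.

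Macrophages were grown with M-CSF from marrow of C57Bl/6 mice, either wild type (WT) or TTP-/- (KO), which lacks tristetraprolin, the mRNA decay protein encoded by Zfp36. All cells, controls included, first received lipopolysaccharide (LPS) for 3 h. They were then moved to fresh medium that held the transcription blocker actinomycin D together with the p38 kinase inhibitor SB203580, and were collected after 0, 45 or 90 min. Each of the 6 groups of genotype and time had 3 arrays. No group lacked LPS, and none had the transcription block without the p38 inhibitor. The labels do not say whether replicates came from separate mice or cultures, and the p-values cover no more than the spread of these samples, possibly a technical one.

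Ribosomal proteins assemble with ribosomal RNA in the nucleolus into the small subunit, which reads the mRNA, and the large subunit, which joins the amino acids. Their mRNAs are among the most abundant and longest lived in most mammalian cells. Many begin with a C followed by a run of pyrimidines, the terminal oligopyrimidine (TOP) motif, through which mTOR signalling controls their translation.

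RefSeq promoter entries (GRCm38.p6) matched 51 of the 63 genes. A run here was at least 6 pyrimidines in a row counted from a C within 10 bases of an annotated start, read on the coding strand. The base before that C was not checked, so a run can be part of a longer stretch of pyrimidines. Such runs occurred in 24 of the 51 genes (47.1%) and in 21.9% of all 27025 genes with an entry. On the other strand the same search found 9.8% and 25.3%. The windows below run from 20 bases before to 20 bases after the annotated start, with the pyrimidine run in capitals. They show genes on which the values below turn, first those with a run and then those without.
Rps6: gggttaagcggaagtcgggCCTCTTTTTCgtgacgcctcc
Rps10: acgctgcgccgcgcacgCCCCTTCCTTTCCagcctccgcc
Rplp2: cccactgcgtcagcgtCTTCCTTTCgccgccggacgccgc
Rps15a: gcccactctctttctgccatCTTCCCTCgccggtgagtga
Rpl38: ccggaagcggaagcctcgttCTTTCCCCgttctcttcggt
Rps9: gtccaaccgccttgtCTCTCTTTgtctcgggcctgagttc
Rplp0: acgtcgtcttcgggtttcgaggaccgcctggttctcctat
Rpl24: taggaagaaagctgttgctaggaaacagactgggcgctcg
Rpsa: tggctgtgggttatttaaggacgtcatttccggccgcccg
Rps4x: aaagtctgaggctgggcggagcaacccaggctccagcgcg

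The windows lie at chr4:86857348-86857387 (Rps6, minus strand), chr17:27635225-27635264 (Rps10, minus), chr7:141447631-141447670 (Rplp2, plus), chr7:118116128-118116167 (Rps15a, minus) and chr11:114668560-114668599 (Rpl38, plus). The rest lie at chr7:3704021-3704060 (Rps9, plus), chr5:115559447-115559486 (Rplp0, plus), chr16:55966255-55966294 (Rpl24, plus), chr9:120127746-120127785 (Rpsa, plus) and chrX:102189372-102189411 (Rps4x, minus). Each spans the annotated transcription start, so its second part is transcribed and its first part is flanking sequence. In Rps15a and Rpl38 the capitals opened at the annotated first base, and in Rps6 they opened 1 base before that base. A T lies directly before the capitals in Rps15a, Rpl38, Rplp2 and Rps9, so the stretch of pyrimidines there is longer than the capitals. Over the whole entries, 250 bases before to 50 after the start, CCGGAA on either strand (core of an Ets factor site; its reverse, TTCCGG, can share letters with a pyrimidine run) occurred in 51% of the ribosomal protein genes and 16.7% of all genes. TATAAA on either strand occurred in 11.8% and 15.7%. These matches describe letters only, and an annotated start may not be the one used in these cells.

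Most ribosomal protein rows were bright. The median of the 63 mean log2 intensities was 9.12, at the 98.6th percentile of all genes, and 48 of 63 lay above the 90th percentile of 6.75. There were 15 genes above 10, 27 from 8 to 10, 14 from 5 to 8 and 7 under 5. Probes of different genes bind with different strength, so the order of signals is not an order of mRNA amounts. The 5 brightest rows were those of Rpl10 (11.05), Rplp0 (10.95), Rps2 (10.92), Rps6 (10.92) and Rpl21 (10.79). The 5 dimmest were those of Rpl12 (3.16), Rplp2 (2.98), Rpl10l (2.69), Rpl3l (2.10) and Rpl39l (1.52). Rpl12 and Rplp2 encode core proteins at the factor-binding region of the large subunit, and their rows lay close to the test limit, a log2 intensity of 3.03, where changes are understated. The other 3 are paralogs known from testis or muscle.

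Several genes had more than 1 row. The 63 genes had 217 rows of their own, 39 genes had more than 1, and Rps12 had 14. Of the 217 rows, 19 were identical to another in every array, among them the 3 rows of Rpl41. A further 221 rows carried a ribosomal protein symbol together with other symbols, and 20 ribosomal protein symbols, such as Rpl3, Rps16 and Rpl11, occurred only there and are not among the 63. Ribosomal protein genes have many processed copies in the genome, and the signals of near-identical copies cannot be separated, so single rows are uncertain in this respect.

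The arrays as a whole carried the labelled cell type. All 10 macrophage markers measured were above the test limit, among them Lyz2, Cd68 and Adgre1, with summed intensities of 13720 to 18190 over the 18 arrays. Sums for neutrophil markers (7 genes) were 30.0 to 42.8, for T cell markers (5 genes) 20.3 to 30.5 and for B cell markers (4 genes) 15.8 to 20.9. Among the neutrophil markers only S100a8 exceeded the limit, in KO at 0 min (3.20) and 90 min (3.12). Fibroblast markers (6 genes) summed to 45.4 to 62.6, with 3 of 6 above the limit. Dendritic cell markers (4 genes) summed to 21.76 to 30.38, with 1 or 2 above the limit in each group. Erythroid markers (2 genes) summed to 8.143 to 13.15, with 0 above it. Zfp36 itself read 7.64 ± 0.45 in WT and 6.61 ± 0.31 in KO at 0 min (log2 intensity, SD, n = 3). The difference was -1.04 with a limma adjusted p of 0.564, and the files do not say whether its probes lie in the deleted part.

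The first question was whether ribosomal protein mRNAs fell after the transcription block. In WT cells no fall over 90 min passed the test, relative to the other mRNAs on the array. Of the 60 genes tested, 0 passed the limma test (adjusted p under 0.05), against 1.23% of the 10258 genes tested. The median log2 change was -0.07, or 95.3% of the signal at 0 min, with single genes from -0.34 to 0.24, against a median of -0.02 over all genes tested. There were 40 negative and 20 positive values (66.7% negative), against 52.7% negative over all genes tested. By contrast Tnf, a cytokine mRNA with AU-rich elements that TTP binds, was left with 5.31% of its signal in the same arrays. RMA scales the arrays to one another, so these are changes relative to the average mRNA. A general loss of RNA would not be seen.

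The 90 min arrays allowed an upper bound on the fall. The lower end of the 95% interval from limma stood above -1 for all 60 genes, so a relative loss to 50% or less lay outside the interval of each gene. Rows near the test limit, such as those of Rplp2 (2.98) and Rpl12 (3.16), understate changes, so for them the interval does not bound the loss of mRNA. The widest interval was that of Rps20, a small-subunit protein, whose lower end was -0.99. The median standard error was 0.18 for these genes and 0.20 for all genes tested.

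Genes lower in WT at an unadjusted limma p under 0.05 were no more frequent than among all genes, and none passed the adjusted test. At an unadjusted p under 0.05 stood 2 of 60 genes (3.33%), both lower. Of all genes 7.25% were lower at that threshold, and 9.43% changed in either direction. Rps4x, the X-linked small-subunit gene, read 9.77, 9.91 and 9.95 at 0 min (log2 intensity, replicates 1 to 3) and 9.56, 9.51 and 9.60 at 90 min. Every 90 min array was below every 0 min array, with a change of -0.32 ± 0.15 (SE, n = 3) and a limma adjusted p of 0.511. Rps19bp1 went from 6.33, 6.65 and 6.51 to 6.20, 6.28 and 6.09, a change of -0.30 ± 0.13 with a limma adjusted p of 0.460. Its groups did not overlap either.

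Such separated groups, lower at 90 min, were found for 4 of 60 genes, close to the share of 7.24% over all genes. The other two were Rplp2, a stalk protein that recruits translation factors, and Rps15a, a small-subunit protein. Rplp2 read 3.19, 3.32 and 3.22 at 0 min and 2.74, 3.03 and 2.95 at 90 min, all near the limit. Its change was -0.34 ± 0.16 (limma adjusted p = 0.543). Only its WT 0 min mean (3.24) reached the limit of 3.03, so the row was tested through the group it fell from. Its fall and its separated groups therefore carry no weight. Rps15a read 5.80, 5.80 and 6.13 and then 5.79, 5.74 and 5.47, so only replicate 3 moved by more than 0.1. The largest positive values were those of Rpl22, an RNA-binding large-subunit protein (0.24 ± 0.18), and Rpl36a (0.18 ± 0.17), both with overlapping groups.

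At 45 min the WT values were of the same size. In limma 0 of 60 genes passed (background 0.127%), and 0 had an unadjusted p under 0.05 (background 3.89%). The median change was -0.06, with 45 negative values (75%, against 51.3% of all genes) and a range of -0.31 to 0.12. The largest were those of Rplp2 (-0.31 ± 0.16), Rps15a (-0.26 ± 0.21), Rpl22 (0.12 ± 0.18) and Rpl5 (0.12), which carries 5S RNA into the large subunit. The Rplp2 row was again tested only through its WT 0 min mean. The WT comparisons at 45 and 90 min share the 0 min arrays. In series B alone, the arrays of replicates 1 and 2, the median was -0.03 at 45 min and -0.00083 at 90 min, with 0 of the 60 genes past the limma threshold at either time, against 2.45% of all genes at 45 min and 13.3% at 90 min. An unadjusted p under 0.05 was reached by 1 of 60 at each time, against 17.2% and 29.3% of all genes.

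**Figure D1:**
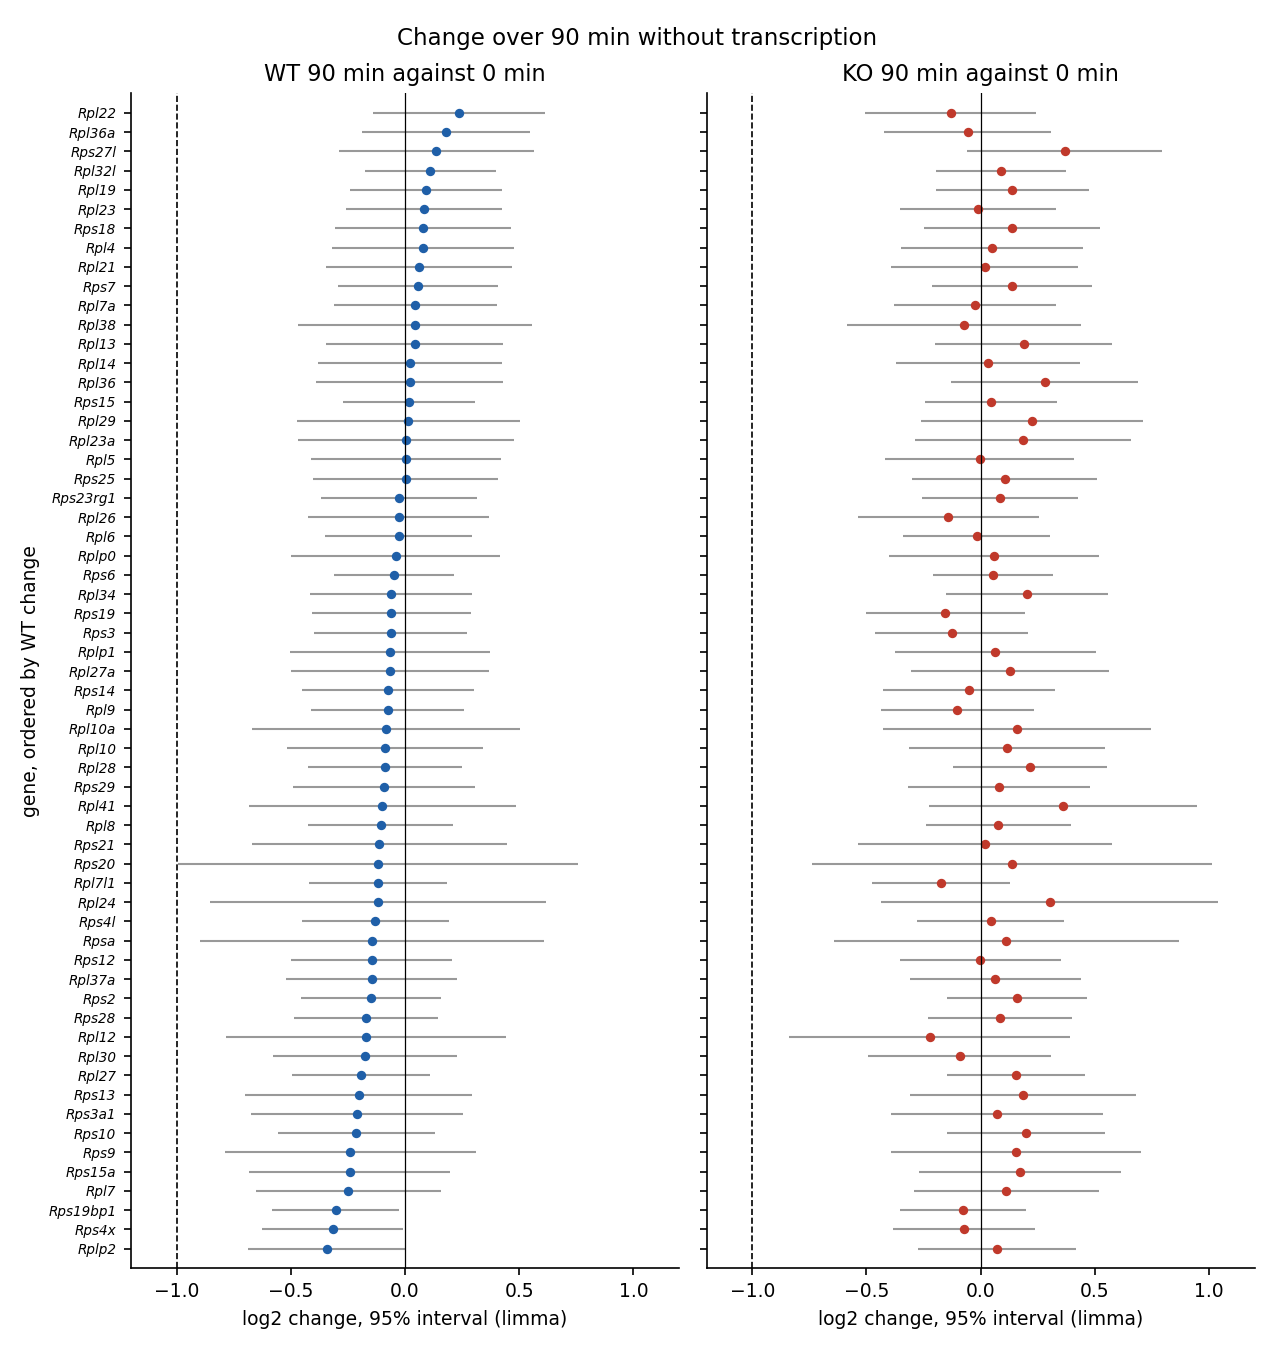
The log2 change from 0 to 90 min with its 95% interval from limma (x axis) is plotted for each of the 60 tested genes (y axis, ordered by the WT change), with WT in the left panel and KO in the right. The dashed line marks a change of -1, and every interval lies above it. The WT values run from -0.34 (Rplp2, tested only through its WT 0 min mean) to 0.24 (Rpl22).

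In KO cells no change passed the test either. In limma 0 of 60 genes passed at 90 min (background 0.224%) and 0 at 45 min (background 0.0487%). None had an unadjusted p under 0.05 at either time, against 5.36% and 5.26% of all genes. The median change was 0.08 at 90 min (105.4% of the signal at 0 min, 42 positive values), against 0.02 over all genes tested. At 45 min it was 0.05 (103.6%, 41 positive values), against -0.01 over all genes. Negative were 30% and 31.7% of the 60 genes, against 46.5% and 52.2% of all genes. Both signs of the median of the 60 genes rested on 1 array: without KO 0 min replicate 3 the medians were -0.04 and -0.05. In series B alone they were 0.02 and -0.02.

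Named KO values were as follows. Rps27l, a paralog of Rps27 known as a p53 target, read 6.82, 6.48 and 5.86 at 0 min and 6.68, 6.76 and 6.83 at 90 min, a change of 0.37 ± 0.20 (limma adjusted p = 1.00). Replicate 3 at 0 min was the low array, and the groups overlapped. Rpl41, the smallest ribosomal protein, gave 0.36 ± 0.28 at 90 min and the same value at 45 min, and Rpl36 gave 0.36 ± 0.19 at 45 min. Rpl12 gave -0.22 at 90 min and -0.25 at 45 min, Rpl7l1 -0.17 ± 0.14 at 90 min and Rps19bp1 -0.15 ± 0.13 at 45 min.

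Groups that did not overlap, higher at 90 min, were found in KO for 3 of 60 genes, against 5.64% of all genes. They were Rpl28 (9.84, 9.95 and 9.80, then 9.97, 10.31 and 9.97), Rps10 and Rpl27. Rps10, at the mRNA entry side of the small subunit, read 8.99, 8.98 and 8.86 at 0 min and 9.09, 9.25 and 9.09 at 90 min. These are differences of 0.22 ± 0.16 for Rpl28 and 0.20 ± 0.16 for Rps10.

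The series' own question was whether TTP alters decay. The change over 90 min did not differ detectably between genotypes for any ribosomal protein gene. In limma 0 of 60 passed the test of the difference (background 0.0195%) and 0 had an unadjusted p under 0.05 (background 2.67%). The median of KO minus WT change was 0.15, against 0.04 over all genes tested. The range was -0.37 to 0.46, with 45 positive values (25% negative, against 43.6% of all genes). By replicate number the medians were 0.05, -0.04 and 0.37, an SD of 0.21. Without KO 0 min replicate 3 the median was 0.01, and in series B alone it was -0.03. The largest values were 0.46 ± 0.39 for Rpl41, 0.42 ± 0.49 for Rpl24, -0.37 ± 0.25 for Rpl22 and -0.24 ± 0.25 for Rpl36a. For a reference of 7 genes with short-lived mRNAs listed as reported TTP targets, Tnf and Zfp36 itself among them, the median was 2.08. In limma 2 of the 7 passed, both higher. The list was chosen for TTP, so its difference says nothing about short-lived mRNAs in general.

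At 0 min, after LPS alone, the ribosomal protein rows were mostly lower in KO than in WT, though none passed the test. The median difference was -0.28 (82.6% of the WT signal, SD 0.27 over the 3 replicate numbers), and 59 of 60 genes were negative, against a median of 0.00 and 50.1% negative over all genes tested. Of the 60 genes, 0 passed in limma, as of all genes (0%); at an unadjusted p under 0.05 stood 11, all lower, against 7.57% of all genes in either direction. The 3 KO arrays were all below the 3 WT arrays for 18 of 60 genes, against 7.14% of all genes. Rpl22 was the exception in sign, at 0.11 ± 0.18.

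The 0 min difference came mainly from 1 replicate number. The medians over the 60 genes were -0.07, -0.10 and -0.54 for replicates 1, 2 and 3. Replicate 3 of WT was the highest of all 18 arrays, with a median deviation from the gene means of 0.28, and replicate 3 of KO was the lowest, at -0.29. The medians of the other 16 arrays lay between. The median difference was -0.17 without KO 0 min replicate 3 and -0.21 without WT 0 min replicate 3.

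The genes with the largest 0 min values show the same array pattern. Rps27l read 6.85, 6.89 and 7.02 in WT and 6.82, 6.48 and 5.86 in KO, a difference of -0.53 ± 0.20 (limma adjusted p = 0.643). Rps15a read 5.80, 5.80 and 6.13 in WT and 5.67, 5.70 and 4.91 in KO, a difference of -0.48 ± 0.21 (limma adjusted p = 0.655). In both genes the groups were separate, and replicate 3 held most of the gap. For Rps19bp1 the gap was spread more evenly, with differences of -0.12, -0.52 and -0.44 by replicate number.

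**Figure D2:**
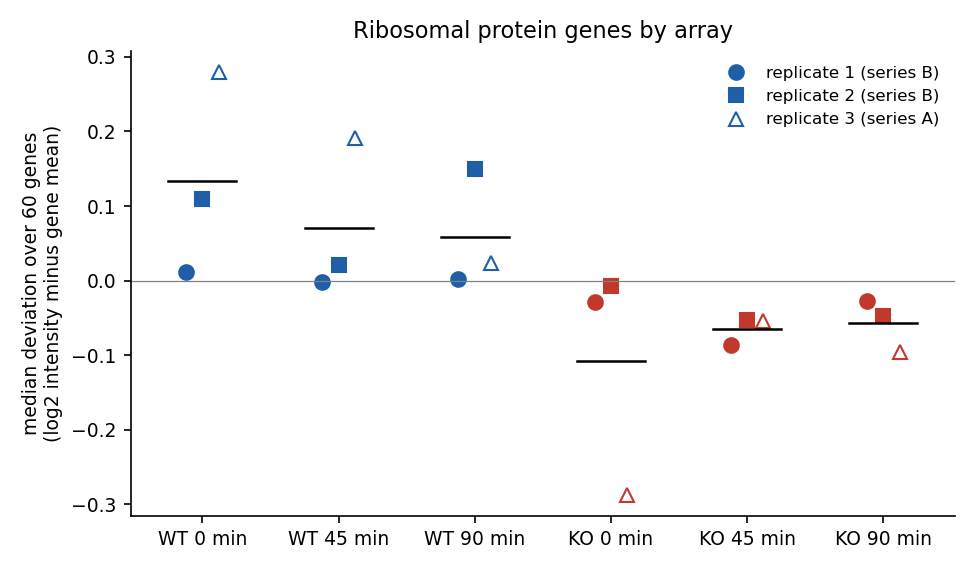
Each point is 1 array: the median over the 60 tested genes of the log2 intensity minus the gene's mean over all arrays (y axis), by group (x axis), with WT in blue, KO in red, replicate 3 as open triangles and a bar at the mean of 3 arrays. WT 0 min replicate 3 is highest at 0.28, and KO 0 min replicate 3 is lowest at -0.29.

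Averaged over all 3 times, 9 KO arrays against 9 WT arrays, every one of the 60 genes was lower in KO. The median difference was -0.17 (89.0% of the WT signal), with a range of -0.32 to -0.02, against a median of 0.01 and 48.6% negative over all genes tested. The difference was small for each gene. In limma 0 of 60 passed (background 1.33%), and 17 (28.3%) had an unadjusted p under 0.05, all lower. Of all genes 5.18% were lower at that threshold, and 11.6% differed in either direction. Since the 60 rows move together between arrays, the count of negative genes is not a count of independent observations.

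By subunit the medians were -0.18 for 33 large-subunit genes, -0.16 for 21 small-subunit genes and -0.19 for 6 paralogs or related genes. The sign was also negative on all 214 of the 217 single-symbol rows above the limit, and on all 220 rows above it that share symbols. The medians by replicate number were -0.05, -0.12 and -0.34. Genes with a pyrimidine run near the start, as counted above, had a median of -0.15 (n = 23) and those without one -0.17 (n = 25).

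Rps19bp1 had the lowest adjusted p. It read 6.33, 6.65 and 6.51 in WT at 0 min, 6.30, 6.32 and 6.42 at 45 min and 6.20, 6.28 and 6.09 at 90 min. In KO it read 6.21, 6.13 and 6.06, then 5.98, 6.08 and 5.88, then 5.98, 6.20 and 6.00. The WT and KO arrays were separate at 0 and 45 min and overlapped at 90 min. The difference was -0.29 ± 0.08 (SE, 9 against 9 arrays; limma adjusted p = 0.0792), and by replicate number -0.22, -0.28 and -0.36. With the title-number series, defined below, as a block its limma adjusted p was 0.0306, in a fit that called 1 of 60 ribosomal protein genes and 4.82% of all genes. The 2 largest differences were those of Rps27l (-0.32 ± 0.12, limma adjusted p = 0.248) and Rpl23a, a protein at the peptide exit (-0.29 ± 0.13, limma adjusted p = 0.393).

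The stalk proteins and paralogs differed in size. The stalk base Rplp0 gave -0.04 ± 0.13, Rplp1 -0.03 ± 0.12 and Rplp2, tested only through its WT 0 min mean, -0.11 ± 0.09. Rpl7l1, a nucleolar relative of Rpl7, gave -0.22 ± 0.08, beside -0.28 ± 0.11 for Rpl7. Rps4l gave -0.17 ± 0.09, beside -0.17 ± 0.08 for Rps4x. Rpl32l gave -0.05 ± 0.08 and Rps23rg1 -0.15 ± 0.09. None passed the test. The parents of Rps27l and Rpl32l occurred only on rows with several symbols.

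Zfp36, the gene deleted in the KO, lies on chromosome 7, as do 8 of the ribosomal protein genes. Those 8 had a median difference of -0.12, against -0.17 for the others. The nearest of these 8, Rps19, a small-subunit protein mutated in Diamond-Blackfan anaemia, gave -0.08 ± 0.10. Next came Rpl28 (-0.12 ± 0.09) and Rps9 (-0.13 ± 0.15). Symbols found only on rows with several symbols, such as Rps16, were not placed, so a nearer ribosomal protein gene may be missing here.

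Sample titles carry serial numbers in separate runs. Replicate 3 of every group belongs to the run of lower numbers (called series A here, 6 arrays), and replicates 1 and 2 belong to the run of higher numbers (series B, 12 arrays). What the numbers stand for is not stated. Within series B the KO minus WT median was -0.09 over all times, with 50 of 60 negative, and -0.08 at 0 min, with 48 of 60 negative. In limma on series B alone 0 of 60 genes passed in either comparison, against 5.68% of all genes over all times and 8.96% at 0 min. An unadjusted p under 0.05 was reached by 3 of 60 over all times and 2 of 60 at 0 min, all lower, against 20.9% and 23.9% of all genes. Series A has 1 array per group, and its values are those given for replicate 3.

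The same numbers marked the largest differences among the ribosomal protein rows. With the group in the model, limma put 10 of 60 genes lower in series A (background 9%) and 8 higher (background 17.1%), and the median over the 60 genes was 0.01. The lower genes included Rps20 (-0.95 ± 0.11), Rpl10a (-0.58 ± 0.09), Rps21 (-0.57 ± 0.08), Rps13 (-0.44 ± 0.10), Rplp1 (-0.38 ± 0.09) and Rpl27a (-0.36 ± 0.09). The higher genes included Rpsa (0.80 ± 0.10), Rpl24 (0.80 ± 0.09), Rps9 (0.55 ± 0.09), Rpl41 (0.53 ± 0.11), Rpl38 (0.50 ± 0.09) and Rplp0 (0.43 ± 0.08). Stalk partners Rplp0 and Rplp1 thus lay on opposite sides.

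Rps20, Rpl24 and Rpsa, the laminin receptor homologue of the small subunit, also had the largest spread over the 18 arrays. Rps20 read 9.35, 9.38 and 8.77 in WT at 0 min and 9.29, 9.30 and 7.76 in KO, with the third array low in both. Rpl24 read 9.82, 9.84 and 10.84 in WT and 9.34, 9.69 and 10.16 in KO, with the third array high in both. In every group all series A arrays stood on the same side of series B for these genes. For Rpsa the difference rested on the row: averaged over its 5 rows it was 0.12 (limma adjusted p = 0.386).

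**Figure D3:**
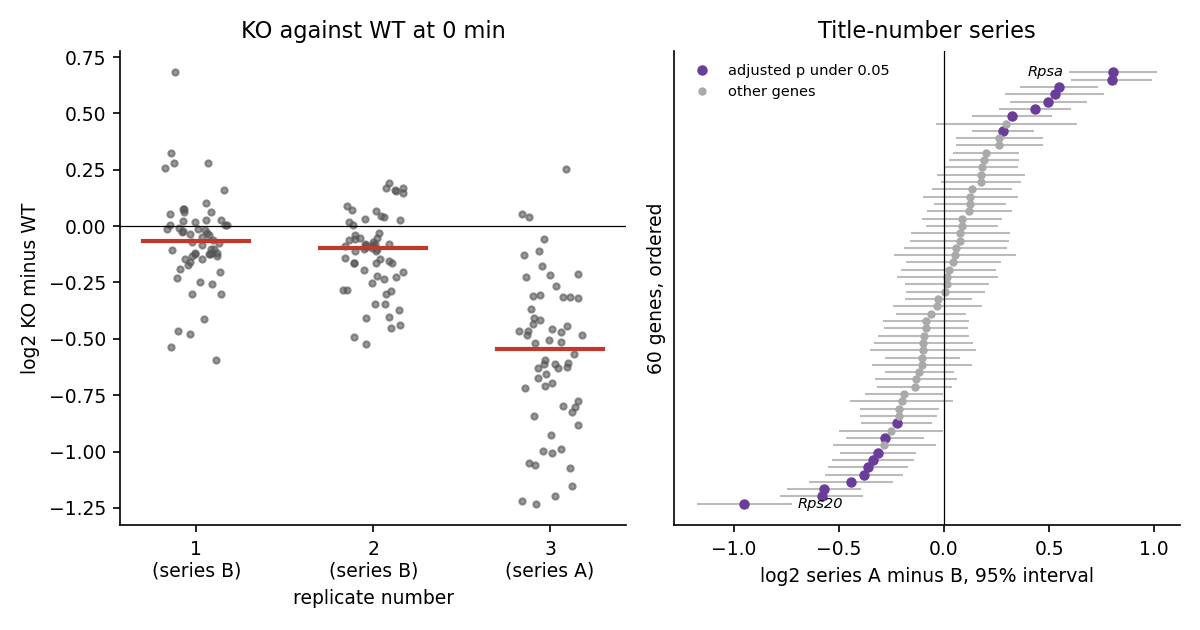
Left, each point is 1 of 60 genes: log2 KO minus WT at 0 min (y axis) within each replicate number (x axis), with red bars at the medians of -0.07, -0.10 and -0.54. Right, the log2 difference of series A minus series B with its 95% interval (x axis) for the 60 genes in order (y axis); purple marks the 18 genes past the limma threshold, from Rps20 at -0.95 to Rpsa at 0.80.

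The deviations of the rows were shared from array to array. After group means were removed, the median Pearson r over pairs of ribosomal protein genes was 0.26 over 18 arrays (68.5% of pairs positive), against 0.04 over pairs of all tested genes (53.4%). With the series also removed it was 0.39 (83.8%), against 0.03 (52.7%). All points share arrays and the RMA scaling, and these values are descriptions. Rpl34 (0.91), Rpl19 (0.90) and Rpl7 (0.89) followed the mean of the group most closely, and Rpl12, near the limit, did not (-0.25). The median SD over the 18 arrays was 0.22 for the 60 genes and 0.26 for all genes tested.

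Among other genes, those whose deviations from group means were most like the mean of the ribosomal protein genes were Nudt21, a subunit of the mRNA cleavage factor (r = 0.95, 18 arrays), and Mdh1, cytosolic malate dehydrogenase (0.91). Next came Tomm20, a mitochondrial import receptor (0.91), Pcna, the replication clamp (0.88), and Cct6a, a chaperonin subunit (0.87).

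**Figure D4:**
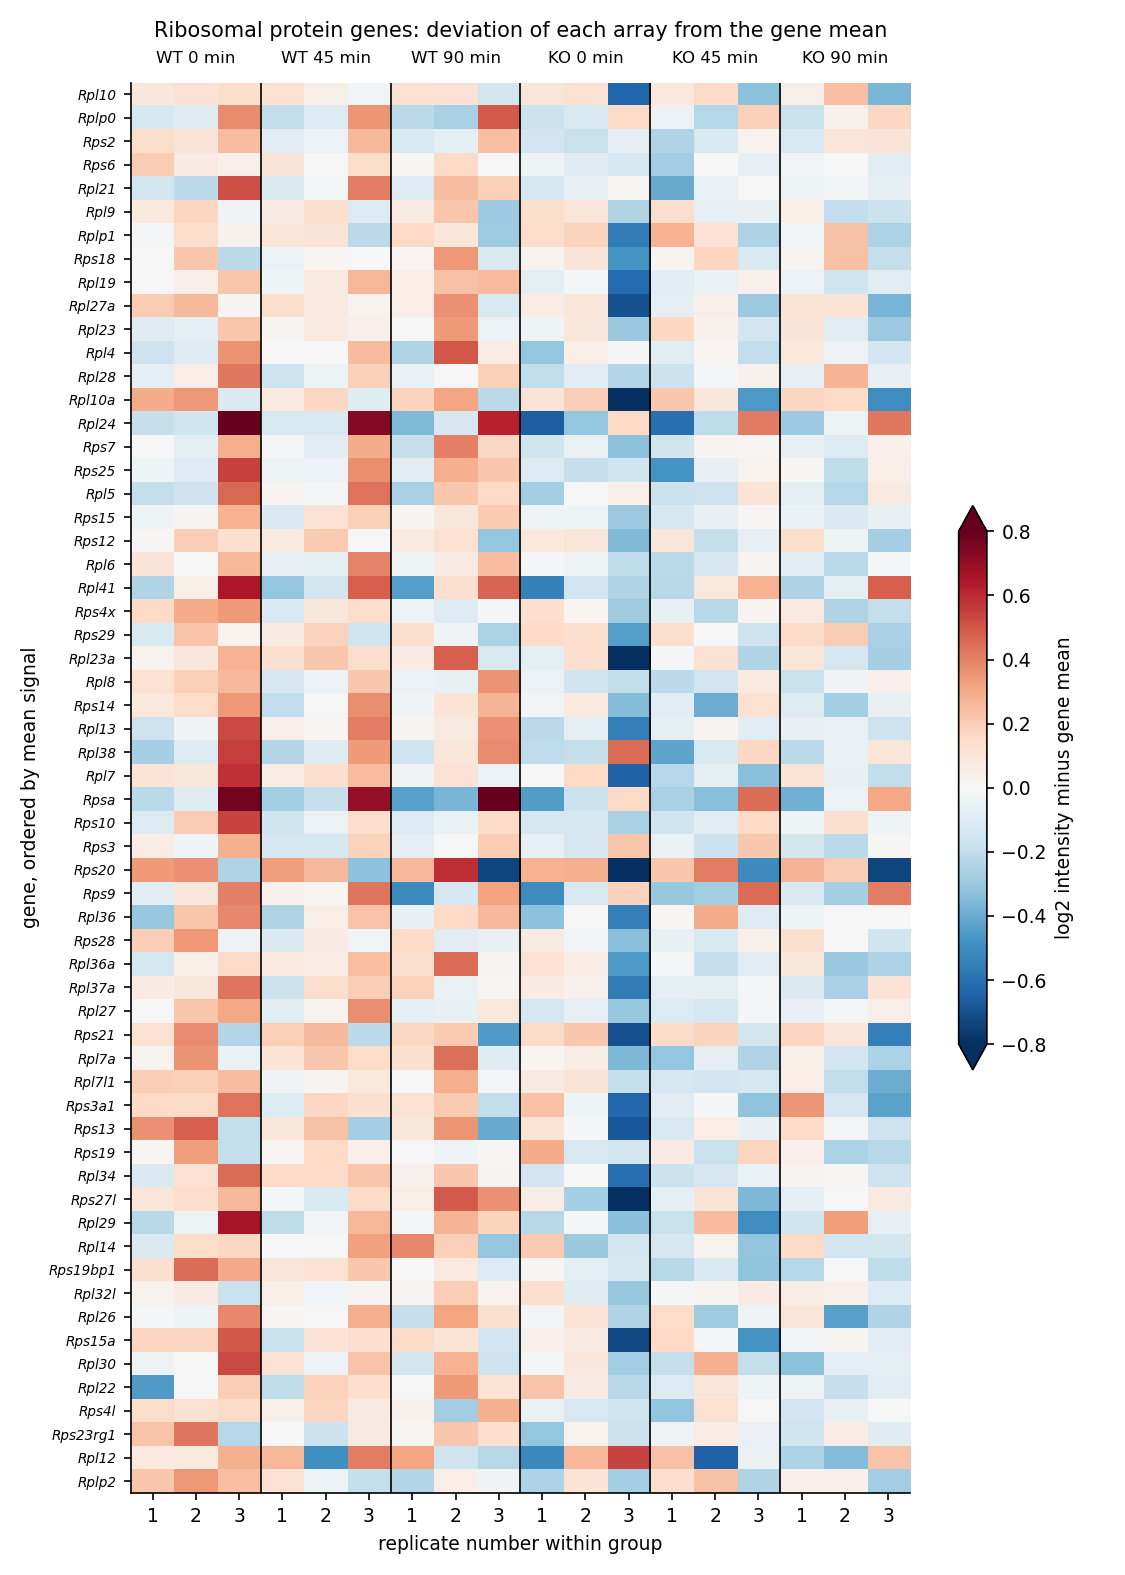
Each row is 1 of the 60 tested genes in order of mean signal, each column 1 array by group and replicate number, and colour is the log2 intensity minus the gene's mean over all arrays, from blue (-0.8 or lower) to red (0.8 or higher). The third column of KO 0 min is mostly blue and that of WT 0 min mostly red, while Rps20 is blue and Rpsa and Rpl24 are red in the third column of most groups.

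Other genes of protein synthesis were read beside them. Over 90 min in WT 0 of 20 further TOP mRNAs, such as that of Eef1a1, passed the limma test (median change 0.04), as did 0 of 27 translation factors (0.01) and 0 of 77 mitochondrial ribosomal proteins (-0.11). Of 54 ribosome biogenesis genes 1 rose and 1 fell: Rbis, a ribosome biogenesis factor, by 1.36 ± 0.18 (limma adjusted p = 0.000455) and Utp4, a subunit of the small-subunit processome, with a change of -0.62 ± 0.14 (limma adjusted p = 0.0295). Of all genes tested 1.23% passed, 125 lower and 1 higher, and the 1 higher gene was Rbis. An unadjusted p under 0.05 was reached by 0 TOP mRNAs, 0 translation factors, 4 of 77 mitochondrial ribosomal proteins and 10 of 54 biogenesis genes, against 9.43% of all genes.

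In KO against WT over all times these lists were also mostly lower. The medians were -0.15 for the TOP mRNAs (17 of 20 negative), -0.11 for translation factors (22 of 27), -0.18 for ribosome biogenesis (50 of 54) and -0.16 for mitochondrial ribosomal proteins (75 of 77). Respiratory chain genes had a median of -0.11 (76 of 84 negative) and proteasome subunits -0.13 (32 of 38). In limma 1 biogenesis gene passed, Emg1, an 18S RNA methyltransferase (-0.35 ± 0.08, limma adjusted p = 0.0437). So did 1 mitochondrial gene, Mrps12, a mitochondrial small-subunit protein (-0.92 ± 0.13, limma adjusted p = 0.000766). Mrps12 stood far below the median of its list. Whether genes of these lists lie near Zfp36 was not examined. Of the TOP, factor, respiratory and proteasome genes 0 passed in limma, against 1.33% of all genes. An unadjusted p under 0.05 was reached by 3 of 20 TOP mRNAs, 6 of 27 factors, 14 of 54 biogenesis genes, 16 of 77 mitochondrial ribosomal proteins, 4 of 84 respiratory chain genes and 5 of 38 proteasome genes, against 11.6% of all genes. As in the cytosolic ribosomal protein genes, replicate 3 gave the lowest median in each of these 6 lists, from -0.15 to -0.40. The 10 macrophage markers had a median of 0.13, with 7 positive and 3 negative values and medians of 0.02, 0.20 and 0.19 by replicate number; 2 were higher in limma, against 1.33% of all genes in either direction. The part of these marker values in the difference was not tested. In bulk samples fewer cells of a type and less RNA per cell cannot be told apart.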

How the data were processed

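The authors deposited 1 table of intensities for the 18 arrays, on a linear scale as judged from the values. Per the submitters' processing notes it was made with RMA in Affymetrix Expression Console, with versions not given in the sources used here. RMA scales the arrays to one another, so changes are relative to the average mRNA. The array medians still ran from 7.41 to 8.19 in linear intensity, so the deposited values do not share 1 distribution. Of 25138 rows, 21039 had 1 gene symbol; the brightest row per symbol was kept. Log2 intensities were fitted with limma 3.58.1 (R 4.3.3), with group means, no block, empirical Bayes moderation and Benjamini-Hochberg adjustment at 0.05 over the 10258 genes with at least 1 group mean at or above the median of all row means (log2 3.03). Errors are SE from limma unless SD is stated; the number of arrays limits the precision. The fit was tested on simulated data.

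The genes and lists were chosen with earlier results of these data known. Named were genes past the threshold (at most 6 per direction) or otherwise the 2 largest each way, the 5 brightest and dimmest rows, paralogs, stalk genes, the 3 nearest Zfp36, the 3 most variable and the 5 most similar other genes. Genes with unadjusted p under 0.05 or separate groups, and the promoters printed, were chosen after their values were seen. Same-numbered replicates deviated together (every pair's r over 0.1) within KO, between WT at 0 and 45 min, and between genotypes at 0 min, but not in the comparisons that use WT at 90 min (lowest r -0.287). Alternatives were a replicate or series block, series B alone, no filter, row means, an offset of 16, quantile normalization, median centring and leaving out each array.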

Additional observations from a re-analysis of the deposited data

How the results depend on the processing

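With the replicate block, the series block or log2 of the intensity plus 16, 1 gene in place of 0 was lower in KO over all times (Rps19bp1 in both blocks; limma adjusted p 0.0288 with the replicate block). All genes called there were 4.64% with the replicate block, 4.82% with the series block and 153 of 10291 with the offset, against 1.33%. The replicate block changed no other count of genes past the threshold. At an unadjusted limma p under 0.05 it put 20 of 60 genes lower in KO at 0 min in place of 11, against 13.3% of all genes in either direction. Over all times it put 21 lower in place of 17, against 17.9% of all genes. Leaving out single arrays gave 0 to 1 such genes, with 1 only without WT 0 min replicate 3, where 499 of all 10301 genes were called. For series A against series B, the genes higher in A numbered 13 with the offset of 16, and those lower in A numbered 6 (without KO 0 min replicate 3) to 14 over the left-out arrays. The WT 45 min median was -0.0136 after quantile normalization, -0.111 after median centring and -0.117 to -0.00854 over the left-out arrays. Median centring moved the median of all genes from -0.02 to -0.10 for WT 90 min and from 0.04 to 0.15 for the decay difference, where the ribosomal protein medians became -0.155 and 0.249. The WT 90 min median was -0.11 to -0.03 over the left-out arrays. The KO minus WT median over all times stayed negative under every alternative run, from -0.19 to -0.09. Quantile normalization moved it from -0.167 to -0.105, the 0 min difference from -0.275 to -0.191 and the decay difference from 0.145 to 0.0748. Rows near the test limit understate changes.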
